A study of Homo sapiens with 12 samples.

Results

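The genes described here are 10 transcripts that report on, and mostly restrain, signalling through the kinase ERK: the phosphatase genes DUSP6, DUSP4 and DUSP5, the Sprouty-related genes SPRED1 and SPRED2, the Sprouty genes SPRY1, SPRY2 and SPRY4, and the ERK-induced transcripts ETV5 and PHLDA1. They are 10 of the 60603 genes counted. They were chosen by symbol, and on these data: DUSP6 was higher with wild-type BCL7A than with empty vector in both cell lines, and SPRED1 was higher in OCI-LY1. Their values in wild-type BCL7A against empty vector are therefore given as a description, without a test. Polyadenylated RNA was counted per gene in OCI-LY1 and VAL, lines of human diffuse large B-cell lymphoma, a tumour of mature B cells. In both lines, cells given an empty vector were set beside cells given wild-type BCL7A and cells given the mutant delta27-BCL7A, with 2 libraries in each of the 6 groups. BCL7A is a subunit of SWI/SNF chromatin remodelling complexes. Every group, the empty vector included, went through 3 infection cycles (multiplicity 2) with a vector that also encodes the fluorescent reporter ZsGreen1, and cells positive for the reporter were sorted. The BCL7A groups received both the short and the long isoform, so the groups are transduced populations and not clones. OCI-LY1 was collected at day 10 after transduction and VAL at day 17, so line and day cannot be told apart. The labels give the 2 libraries of a group as biological replicates from separate transductions.

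ERK is the last kinase of a cascade that runs from receptors through RAS, RAF and MEK. When ERK is active it induces its own brakes. DUSP6 removes activating phosphates from ERK in the cytoplasm, DUSP5 and DUSP4 act in the nucleus, Sprouty proteins restrain the path from receptors to RAS and RAF, and SPRED proteins bring neurofibromin to the membrane to switch RAS off. In B cells the cascade carries signals from the B cell receptor, and the transcripts of these brakes are widely read as a record of recent ERK activity. Protein, phosphorylation and ERK activity were not measured here.

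Each library held between 21839547 and 24935893 reads assigned to genes. BCL7A, the gene that was added, rose with both constructs in both lines: its mean went from 156 CPM (counts scaled to a common library size) with empty vector to 577 and 581 in OCI-LY1 and from 287 to 463 and 488 in VAL, with wild-type and delta27-BCL7A in that order. All 8 B cell markers were above 1 CPM in every library of both lines, and 0 of 8 T and NK cell markers and 0 of 7 myeloid markers were. Of 7 stromal, endothelial and epithelial markers, 2 passed that level in OCI-LY1, led by EPCAM (mean 20.9 CPM), and 1 in VAL, PECAM1 (33.1 CPM). Agreement within a group was poorest for wild-type BCL7A in VAL, where chi-square over genes divided by its degrees of freedom was 7.5; elsewhere it was 1.51 to 3.2. Results below that rest on 1 library are named with the value obtained without it.

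The 10 genes differed widely in level. SPRED2 was the highest in each of the 6 groups when levels were divided by exon length, at 13.9 CPM per kb ± 1.5 (SD, n = 2) in OCI-LY1 with empty vector and 7.84 ± 0.60 in VAL. In OCI-LY1 with empty vector DUSP5 followed at 1.93 CPM per kb ± 0.35 and SPRY1 at 1.75 ± 0.18, whose libraries overlapped, then DUSP6 at 0.76 ± 0.012 and SPRED1 at 0.375 ± 0.036. In VAL with empty vector DUSP5 stood at 1.1 CPM per kb ± 0.17, DUSP4 at 0.582 ± 0.10 and DUSP6 at 0.503 ± 0.012, of which DUSP4 and DUSP6 overlapped. SPRED1 followed in VAL at 0.23 ± 0.041 CPM per kb, and PHLDA1 (0.132 ± 0.026) and SPRY1 (0.114 ± 0.015) overlapped below it. ETV5, a transcription factor of the ETS family, had 3 to 8 reads in each library. SPRY4 had 4 reads in all 12 libraries together, and SPRY2 had 0, which allows a level of up to 0.011 CPM over the 12 libraries (counting error only). Of the 10 genes, 7 passed the filter on low counts and could be tested; SPRY2, SPRY4 and ETV5 did not.

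**Figure D1:**
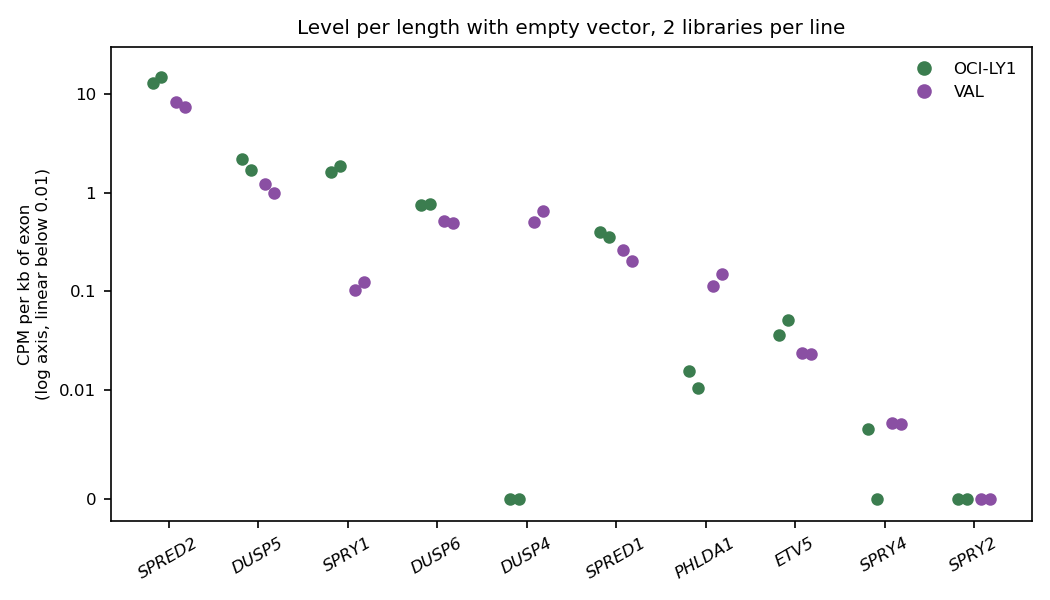
Level per length of the 10 genes with empty vector. The vertical axis is CPM per kb of exon on a log scale that is linear below 0.01, and each point is 1 of the 2 libraries of OCI-LY1 or VAL. SPRED2 stands above the others in both lines, DUSP4 is at 0 in OCI-LY1 only, SPRY1 is the member that falls furthest from OCI-LY1 to VAL, and SPRY2 is at 0 in both.

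The lines differed most at SPRY1, DUSP4 and PHLDA1. SPRY1 (ENSG00000164056.11; GRCh38 chromosome 4, 123396795 to 123403760, plus strand) had 154 and 178 reads in the OCI-LY1 libraries with empty vector and 9 and 11 in those of VAL. Its lowest count in any OCI-LY1 library was 137 and its highest in any VAL library 16, so the lines did not overlap. SPRY1 was 15.2-fold lower in VAL with empty vector (-3.93 on the log2 scale, SE 0.24; adjusted p = 3.6e-17 by the quasi-likelihood test of edgeR) and 9.94-fold lower with delta27-BCL7A (-3.31, SE 0.23; adjusted p = 1.21e-15, same test).

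SPRY1 and SPRY2 are a pair of Sprouty genes with opposite records in these cells, the former read in every library and the latter in none. Stretches of 250 bases that end next to a RefSeq start site of each, 1 of 2 for SPRY1 and 1 of 3 for SPRY2, are printed to show what sequence lies there, from RefSeq on GRCh38.p14, 5′ to 3′ on the gene's strand. Capitals mark GGAA or its reverse complement TTCC, the core bound by ETS transcription factors, some of which ERK phosphorylates. The SPRY1 stretch is chr4:123396545-123396794 on the plus strand and the SPRY2 stretch is chr13:80341127-80341376 on the minus strand. Neither overlaps an exon of its gene in GENCODE 29.
SPRY1: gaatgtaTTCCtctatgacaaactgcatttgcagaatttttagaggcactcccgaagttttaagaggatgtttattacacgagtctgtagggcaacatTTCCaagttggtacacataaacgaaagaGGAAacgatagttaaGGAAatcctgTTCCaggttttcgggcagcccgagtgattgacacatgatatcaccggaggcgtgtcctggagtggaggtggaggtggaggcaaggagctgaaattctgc
SPRY2: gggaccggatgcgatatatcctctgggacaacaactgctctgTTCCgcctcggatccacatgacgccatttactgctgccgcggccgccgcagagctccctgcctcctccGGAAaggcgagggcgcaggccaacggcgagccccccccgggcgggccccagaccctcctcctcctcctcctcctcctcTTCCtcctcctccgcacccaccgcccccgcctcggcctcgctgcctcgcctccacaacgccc

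The SPRY1 stretch held 5 matches to the core and the SPRY2 stretch 3, against a median of 3 over the 35116 stretches of this length in the table, of which 92.7% held at least 1. GC made up 45.6% of the SPRY1 stretch and 70.4% of the SPRY2 stretch, against a median of 58.0% over the table. The longer ETS site CCGGAA, which contains the core, was searched on both strands too. It was found once in the printed SPRY2 stretch and not in the printed SPRY1 stretch. At the other start sites this was the other way round, with 1 match in the second SPRY1 stretch (GC 68.0%) and 0 in the remaining SPRY2 stretches (GC 62.4% and 41.2%). Of all stretches, 14.5% held it. Start sites in the table matched 7 of the 10 genes, with 11 stretches. None of the 11 held the cAMP response element TGACGTCA, found in 1.65% of all stretches, or the AP-1 site TGACTCA on either strand, found in 4.2%. The stretches of DUSP6 and SPRED1 held 6 and 3 cores; both lie within transcribed exons of longer transcripts of their genes and are not printed.

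DUSP4 (ENSG00000120875.9; chromosome 8, 29333064 to 29350668, minus strand) had 0 reads in each of the 6 OCI-LY1 libraries and 57 to 106 in each VAL library. Set against a floor of 3 reads over the 2 libraries of an OCI-LY1 group, DUSP4 was at least 67.3-fold higher in VAL with empty vector, at least 64.2-fold higher with wild-type and at least 46.9-fold higher with delta27-BCL7A. Like DUSP4, PHLDA1 passed the filter on low counts only through VAL. It went the same way, from 3 and 2 reads in OCI-LY1 with empty vector to 20 and 27 in VAL. As a description, it was 9.69-fold higher in VAL with empty vector and 3.4-fold higher with delta27-BCL7A. Since passing the filter required reads in VAL, no test between the lines is given for it.

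The remaining genes were lower in VAL. With empty vector, SPRED2 was 1.77-fold lower (-0.83 on the log2 scale, SE 0.07; adjusted p = 1.08e-11 by edgeR), DUSP5 1.76-fold (adjusted p = 0.000388), SPRED1 1.63-fold (adjusted p = 0.00427) and DUSP6 1.51-fold (adjusted p = 0.00427). SPRED1 lost this call without VAL empty vector replicate 2 (log2 fold change -0.50; adjusted p = 0.0927). The empty vector libraries also took part in the choice of DUSP6 and SPRED1. With delta27-BCL7A, whose libraries did not, DUSP6 was 2.12-fold lower in VAL (adjusted p = 2.96e-07 by edgeR) and SPRED1 2.63-fold (adjusted p = 1.03e-07). In all, 5 of the 7 genes tested were called lower in VAL, with empty vector and again with delta27-BCL7A. The other 2, DUSP4 and PHLDA1, also passed the threshold, as higher. They passed the filter through VAL alone, so their direction was tied to that filter and is not read as a result. With a minimum count of 50, 6 of the 7 passed the threshold in each of these contrasts. The background is high: 73.4% of the 17057 genes tested differed between the lines with empty vector and 72.9% with delta27-BCL7A.

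DUSP6 (ENSG00000139318.8, chromosome 12, 89347232 to 89353271, minus strand) was picked for a difference between constructs. Its differences are therefore not ranked against those of the other genes. In OCI-LY1 it had 83 and 85 reads with empty vector, 133 and 135 with wild-type BCL7A and 136 and 128 with the mutant, which are 3.52 CPM ± 0.056 (SD, n = 2), 5.78 ± 0.13 and 5.59 ± 0.24. In VAL it had 52 and 51 reads with empty vector, 102 and 90 with wild-type and 70 and 51 with delta27-BCL7A, which are 2.33 CPM ± 0.054 (SD, n = 2), 4.42 ± 0.37 and 2.62 ± 0.41. So in OCI-LY1 the libraries of both constructs lay above those with empty vector. In VAL only those with wild-type BCL7A did, and the delta27-BCL7A libraries overlapped empty vector. How often groups of 2 libraries lie apart was not counted over all genes. Separation of constructs, here and below, is therefore a description and not a result.

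The contrast on which DUSP6 was chosen, wild-type BCL7A against empty vector, put it 0.71 higher (SE 0.15, log2 scale) in OCI-LY1 and 0.92 (SE 0.18) in VAL. Delta27-BCL7A against empty vector, which shares the empty vector libraries with that contrast, gave 0.67 (SE 0.15; edgeR quasi-likelihood adjusted p = 0.00165) in OCI-LY1, a 1.59-fold rise, and 0.17 (95% interval -0.22 to 0.57; adjusted p = 0.697) in VAL. Wild-type against delta27-BCL7A, which shares the wild-type libraries with it, gave 0.05 (95% interval -0.24 to 0.33; adjusted p = 0.92) in OCI-LY1 and 0.75 (SE 0.17; adjusted p = 0.00458) in VAL, where DUSP6 was 1.68-fold higher with the wild type. The VAL call was lost without wild-type replicate 1 (log2 fold change 0.66; adjusted p = 0.0771) and without delta27-BCL7A replicate 2 (0.61; adjusted p = 0.0954), and the OCI-LY1 call held without each library in turn.

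The lines were not shown to differ in these responses of DUSP6. The difference between the lines in wild-type against delta27-BCL7A was 0.70 on the log2 scale (SE 0.22, 95% interval 0.25 to 1.16), with an unadjusted p = 0.0034 and an adjusted p = 0.213 in the edgeR quasi-likelihood test. For delta27-BCL7A against empty vector it was -0.49 (95% interval -1.0 to 0.02; adjusted p = 0.422, same test). An antisense gene, ENSG00000274021, lies over DUSP6 and covers 40.5% of the exon bases of DUSP6. The strand setting of the counting is not given in the sources used here, so how reads on the shared bases were assigned is not known. The antisense gene itself was given 17 to 28 reads in each OCI-LY1 library. In VAL it had 6 and 3 reads with empty vector, 5 and 3 with wild-type and 5 and 7 with delta27-BCL7A. Reads set aside for low alignment quality made up 6.0% and 6.37% of the VAL libraries with wild-type and 3.87% and 5.66% of those with delta27-BCL7A, and their part in the DUSP6 difference was not tested.

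**Figure D2:**
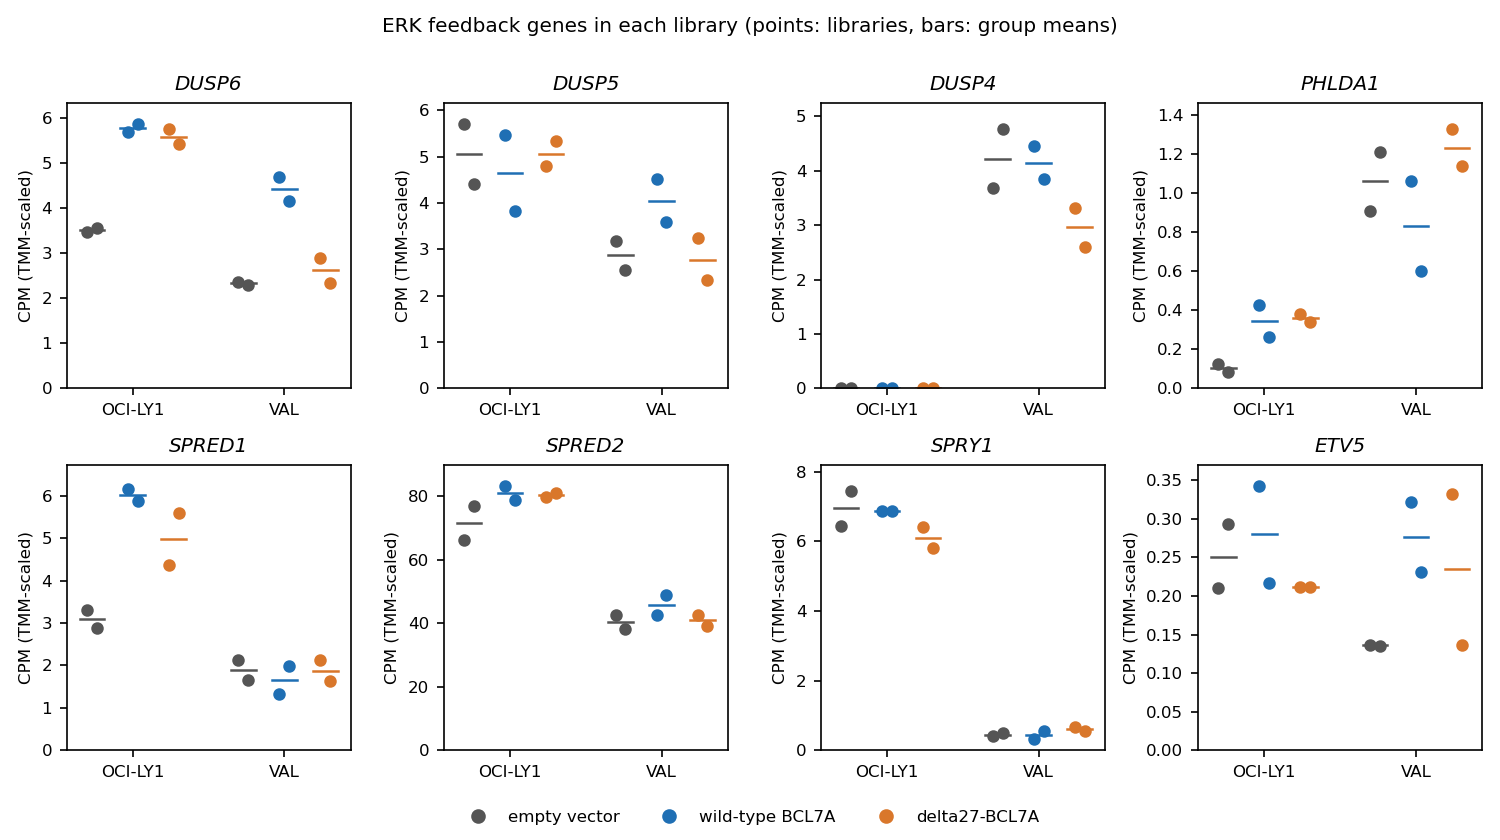
CPM of 8 of the 10 genes in each library; the vertical axes are linear and start at 0. Points are the 2 libraries of a group and bars their mean, in grey for empty vector, blue for wild-type and orange for delta27-BCL7A. DUSP6 with wild-type BCL7A stands apart from empty vector in both lines (5.69 and 5.86 against 3.48 and 3.56 CPM in OCI-LY1), while with delta27-BCL7A it does so in OCI-LY1 only.

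SPRED1 (ENSG00000166068.13; chromosome 15, 38252326 to 38357249, plus strand) was higher with either construct than with empty vector in OCI-LY1. There it had 79 and 69 reads with empty vector, 144 and 135 with wild-type and 103 and 132 with delta27-BCL7A, or 3.10 CPM ± 0.30 (SD, n = 2), 6.01 ± 0.21 and 4.97 ± 0.86. In VAL it had 47 and 37 reads with empty vector, 29 and 43 with wild-type and 51 and 36 with delta27-BCL7A. The groups did not overlap in OCI-LY1, and those of VAL did.

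Delta27-BCL7A against empty vector shares the empty vector libraries with the contrast that chose SPRED1, so its outcome is not independent of that choice. In OCI-LY1 it put SPRED1 1.6-fold higher (0.68 on the log2 scale, SE 0.18; adjusted p = 0.00552 by edgeR). This call was lost without empty vector replicate 2 (0.59; adjusted p = 0.0761) and without delta27-BCL7A replicate 2 (0.49; adjusted p = 0.184). Low alignment quality set aside 4.8% and 6.9% of reads with empty vector and 3.92% and 3.01% with delta27-BCL7A in this line; the part of this in the DUSP6 and SPRED1 results was not tested. Once each library was corrected for trends with GC content and length, SPRED1, whose exons hold 38.9% GC, gave 0.50 (adjusted p = 0.0418). Wild-type against delta27-BCL7A gave 0.27 for SPRED1 in OCI-LY1 (95% interval -0.05 to 0.60; adjusted p = 0.411) and -0.19 in VAL (95% interval -0.70 to 0.32; adjusted p = 0.718). In wild-type BCL7A against empty vector, the contrast that chose it, SPRED1 stood at 0.95 (SE 0.17) in OCI-LY1 and -0.19 (SE 0.25) in VAL. For delta27-BCL7A against empty vector the lines differed by -0.69 (95% interval -1.30 to -0.07), with an unadjusted p = 0.0292 and an adjusted p = 0.316 by edgeR. SPRED1 was picked for its rise over the OCI-LY1 empty vector libraries used here, so this difference is not independent of that choice.

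SPRED2, the close relative of SPRED1 and by far the deepest covered of the 10 genes, moved little. In OCI-LY1 it was at 71.7 CPM ± 7.8 (SD, n = 2) with empty vector, 81.2 ± 3.1 with wild-type and 80.5 ± 0.90 with delta27-BCL7A. The VAL levels were 40.4 ± 3.1, 45.9 ± 4.5 and 41.0 ± 2.5 in the same order. For delta27-BCL7A against empty vector SPRED2 stood at 0.17 on the log2 scale in OCI-LY1 (95% interval 0.03 to 0.31; adjusted p = 0.0832) and 0.02 in VAL (95% interval -0.14 to 0.18; adjusted p = 0.936). In OCI-LY1 the value depended on the empty vector libraries: it was 0.06, not called, without replicate 1 and 0.28 (adjusted p = 0.0148) without replicate 2. It also passed with no filter (0.18; adjusted p = 0.029) and with each line fitted alone (0.17; adjusted p = 0.0204). Wild-type against delta27-BCL7A gave 0.01 (95% interval -0.13 to 0.15) in OCI-LY1 and 0.16 (95% interval 0.0 to 0.32; adjusted p = 0.205) in VAL.

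The nuclear phosphatase genes did not pass the threshold between constructs. DUSP5 had 136 and 105 reads in OCI-LY1 with empty vector, 128 and 88 with wild-type and 113 and 126 with delta27-BCL7A, and all 3 groups overlapped. In VAL it had 70 and 57, 98 and 78, and 78 and 51 reads in that order. Its wild-type libraries lay above the others in VAL, at 4.05 CPM ± 0.64 (SD, n = 2) against 2.87 ± 0.44 and 2.78 ± 0.64, and wild-type against delta27-BCL7A gave 0.53 (95% interval 0.11 to 0.95; adjusted p = 0.103). Leaving out 1 library gave 0.33 to 0.81: it was 0.70 (adjusted p = 0.0424) without wild-type replicate 2, and 0.33 (adjusted p = 0.511) without delta27-BCL7A replicate 2.

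DUSP4 in VAL had 81 and 106 reads with empty vector, 97 and 83 with wild-type and 80 and 57 with delta27-BCL7A. The delta27-BCL7A libraries were at 3.32 and 2.6 CPM and the others at 3.69 to 4.76 CPM, given as a description. The differences were -0.51 against empty vector (95% interval -0.90 to -0.11; adjusted p = 0.134) and 0.48 for wild-type against delta27-BCL7A (95% interval 0.08 to 0.88; adjusted p = 0.129).

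SPRY1 and PHLDA1 also stayed short of the threshold. SPRY1 in OCI-LY1 was at 6.95 CPM ± 0.70 (SD, n = 2) with empty vector, 6.87 ± 0.015 with wild-type and 6.10 ± 0.42 with delta27-BCL7A, and delta27-BCL7A against empty vector gave -0.19 (95% interval -0.47 to 0.09; adjusted p = 0.375). In VAL, where SPRY1 had 7 to 16 reads in a library, that difference was 0.42 with an interval from -0.40 to 1.25, so the depth leaves a wide range. PHLDA1 in OCI-LY1 had 3 and 2 reads with empty vector, 10 and 6 with wild-type and 9 and 8 with delta27-BCL7A. Delta27-BCL7A against empty vector gave 1.73 for PHLDA1 (95% interval 0.37 to 3.09; adjusted p = 0.0648), from 5 reads in all with empty vector. In VAL it had 20 and 27 reads with empty vector, 23 and 13 with wild-type and 32 and 25 with delta27-BCL7A, and the difference of delta27-BCL7A from empty vector was 0.22 (95% interval -0.42 to 0.86; adjusted p = 0.779).

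**Figure D3:**
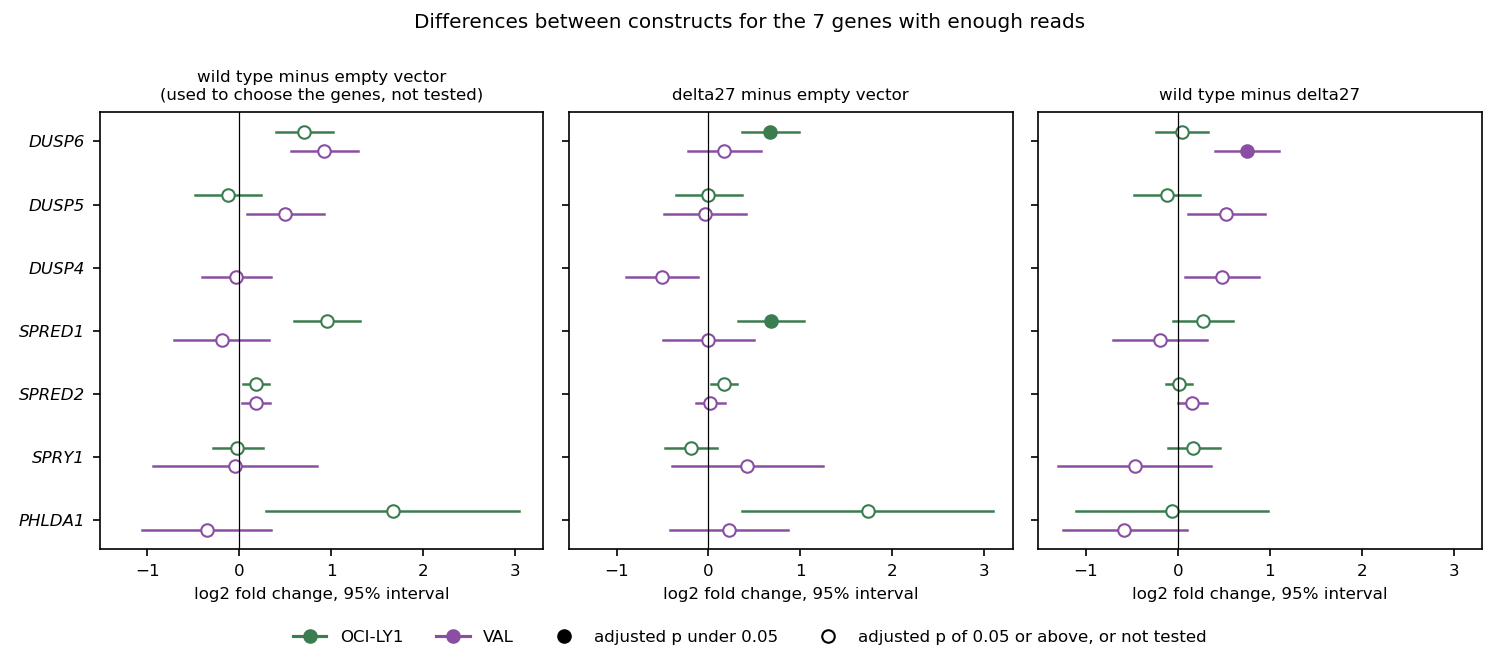
Log2 fold change and 95% interval of the 7 genes with enough reads, OCI-LY1 in green and VAL in purple. Filled points have an edgeR quasi-likelihood adjusted p under 0.05; the left panel is the contrast that chose the genes and carries no test, and DUSP4 has no value in OCI-LY1, where it had 0 reads. The filled points are DUSP6 and SPRED1 in OCI-LY1 with delta27-BCL7A against empty vector (0.67 and 0.68) and DUSP6 in VAL with wild-type against delta27-BCL7A (0.75).

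Counted over the genes, delta27-BCL7A against empty vector in OCI-LY1 called 2 of 6 tested, DUSP6 and SPRED1, both higher, where 19.6% of all genes tested were called. These are the genes picked for being higher than the same empty vector libraries, so their number and direction are not read against that share. In VAL it called 0 of 7, against 5.13% of all genes; 1 of the 7, DUSP4, had an unadjusted p under 0.05 in the edgeR quasi-likelihood test. Limma-voom called 0 of the 7, and DESeq2 gave an adjusted p for 1 of them, SPRED2, and did not call it. For wild-type against delta27-BCL7A, 0 of 6 were called in OCI-LY1, against 3.05% of all genes; 0 had an unadjusted p under 0.05, limma-voom called 0, and DESeq2 called 0 of the 5 to which it gave an adjusted p. In VAL it called 1 of 7, DUSP6, higher with the wild type, beside 9.07% of all genes; DUSP6 was picked on the same wild-type libraries. Of the tests for a difference between the lines, that for delta27-BCL7A against empty vector called 0 of 6 (1.51% of all genes; 1 with an unadjusted p under 0.05) and that for wild-type against delta27-BCL7A called 0 of 6 (0.451% of all genes; 2 with an unadjusted p under 0.05). Limma-voom called 0 in both, and DESeq2 called 0 of the 1 and 0 of the 5 genes to which it gave an adjusted p. In the contrasts that chose the genes, 11.4% of all genes were called in OCI-LY1 and 1.62% in VAL. There, as a description on the log2 scale, SPRED2 stood at 0.18 in both lines. DUSP5 was at -0.12 in OCI-LY1 and 0.50 in VAL, and PHLDA1 at 1.67 and -0.35. SPRY1 was at -0.02 and -0.05, and DUSP4 at -0.03 in VAL. With 6 or 7 genes tested, these counts describe single genes.

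**Figure D4:**
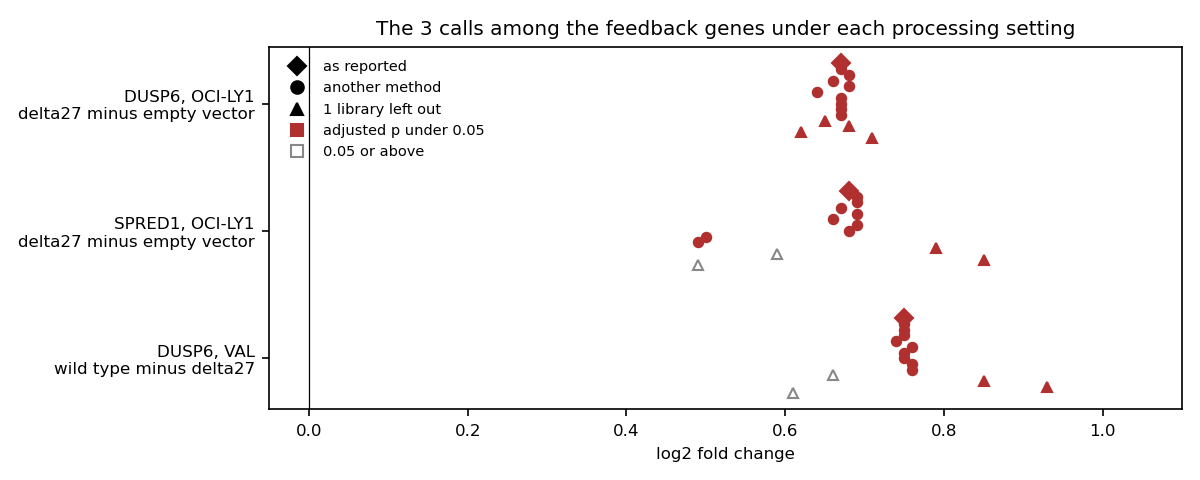
The log2 fold changes of the 3 calls under each processing setting; diamonds are the values as reported, circles other methods and triangles fits without 1 library, filled where the adjusted p was under 0.05. DUSP6 in OCI-LY1 stays filled throughout (0.62 to 0.71), while the other 2 calls each have 2 open triangles.

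The rest of the cascade was read from a list of 32 genes between receptor and nucleus, of which 30 were tested. Beside the counts of this list and the next 2 stand the shares of all genes called. In OCI-LY1 these were 11.4% for wild-type and 19.6% for delta27-BCL7A against empty vector, and 3.05% between the constructs. In VAL they were 1.62%, 5.13% and 9.07% in that order. Delta27-BCL7A against empty vector in OCI-LY1 called 6 higher and 3 lower, with a median log2 fold change of 0.01 against -0.03 over all genes. NRAS, which encodes a RAS protein, rose from 99.2 CPM ± 0.085 (SD, n = 2) to 133 ± 3.4, and ELK4, an ETS factor that ERK phosphorylates, rose from 74.5 and 75.5 CPM to 98.4 and 102. Both kept their calls in each setting tried, with smaller values after the GC content and length correction: 0.25 and 0.21 on the log2 scale against 0.42 for each without it. With wild-type BCL7A in OCI-LY1, 7 were higher and 1 lower than with empty vector, NRAS at 119 ± 1.4 CPM and ELK4 at 98.1 ± 4.2 among the higher ones. In VAL, wild-type BCL7A against empty vector called 0 of the 30 in the edgeR quasi-likelihood test (1 with an unadjusted p under 0.05) and 0 by DESeq2 or limma-voom. Delta27-BCL7A called 3 higher and 2 lower there, and 0 to 2 in all when 1 library was left out. Between the constructs, the edgeR test called 0 in OCI-LY1 (5 with an unadjusted p under 0.05; 0 by DESeq2 and limma-voom). In VAL, wild-type against delta27-BCL7A called 1 higher and 2 lower; RASGRP3, which loads RAS with GTP, was higher with the wild type, at 84.3 ± 0.28 against 68.5 ± 0.55 CPM (log2 fold change 0.30, SE 0.06; adjusted p = 0.000533).

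Other negative regulators of the pathway formed a list of 30 genes, 26 of them tested. Delta27-BCL7A against empty vector called 2 higher and 2 lower in OCI-LY1 and 0 higher and 1 lower in VAL, and wild-type BCL7A called 2 higher and 2 lower in OCI-LY1 and 1 higher in VAL. Leaving out 1 library put these counts at 1 to 6 and 0 to 1 for delta27-BCL7A and 1 to 3 and 0 to 3 for wild-type BCL7A. Between the constructs in OCI-LY1 the edgeR test called 0 (3 with an unadjusted p under 0.05; 0 by limma-voom, and by DESeq2 0 of the 24 with an adjusted p). Wild-type against delta27-BCL7A in VAL called 2 higher and 0 lower, with a median of 0.09 against 0.00 over all genes. DUSP2, a nuclear phosphatase of ERK that B and T cells induce on activation, was at 77.1 CPM ± 8.1 (SD, n = 2) with the wild type, 57.8 ± 1.3 with delta27-BCL7A and 68.7 ± 4.5 with empty vector (log2 fold change against delta27-BCL7A 0.42, SE 0.07; edgeR quasi-likelihood adjusted p = 4.49e-05).

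Other ERK-induced transcripts formed a list of 26 genes, of which 21 were tested. In VAL, wild-type against delta27-BCL7A called 2 higher and 2 lower. Of these calls, only that of EGR1 held without each library in turn. Without wild-type replicate 1, EGR2 went from 0.59 to 0.50 on the log2 scale and CDC25A from -0.21 to -0.18. EGR1, an immediate early transcription factor, was at 4.51 and 4.76 CPM with the wild type and 2.66 and 1.64 with delta27-BCL7A (1.09 on the log2 scale, SE 0.21; adjusted p = 0.000562 by edgeR); this was 0.80 without delta27-BCL7A replicate 2 and 1.5 without replicate 1, and the call held. Against empty vector in VAL, the edgeR test called 0 of the 21 with either construct (1 with an unadjusted p under 0.05 for wild-type and 6 for delta27-BCL7A). Limma-voom called 0, and DESeq2 called 0 of the 13 and 0 of the 10 to which it gave an adjusted p. In OCI-LY1, delta27-BCL7A called 3 higher and 3 lower, or 1 to 5 in all without 1 library; HBEGF, a ligand of the EGF receptor, rose from 12.5 CPM ± 0.46 (SD, n = 2) to 19.5 ± 0.26 (0.64, SE 0.11; adjusted p = 4.27e-05). Wild-type BCL7A called 3 higher and 1 lower in OCI-LY1, IER5, an immediate early gene, going from 13.3 ± 0.94 to 20.6 ± 2.2 (0.63, SE 0.09; adjusted p = 1.2e-05). Between the constructs in OCI-LY1, the edgeR test called 1 higher with the wild type, IER5 (0.39, SE 0.09, adjusted p = 0.0101), and 0 lower. This difference was 0.27 without wild-type replicate 2 and 0.35 without delta27-BCL7A replicate 2, and the call was lost in both fits.

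**Figure D5:**
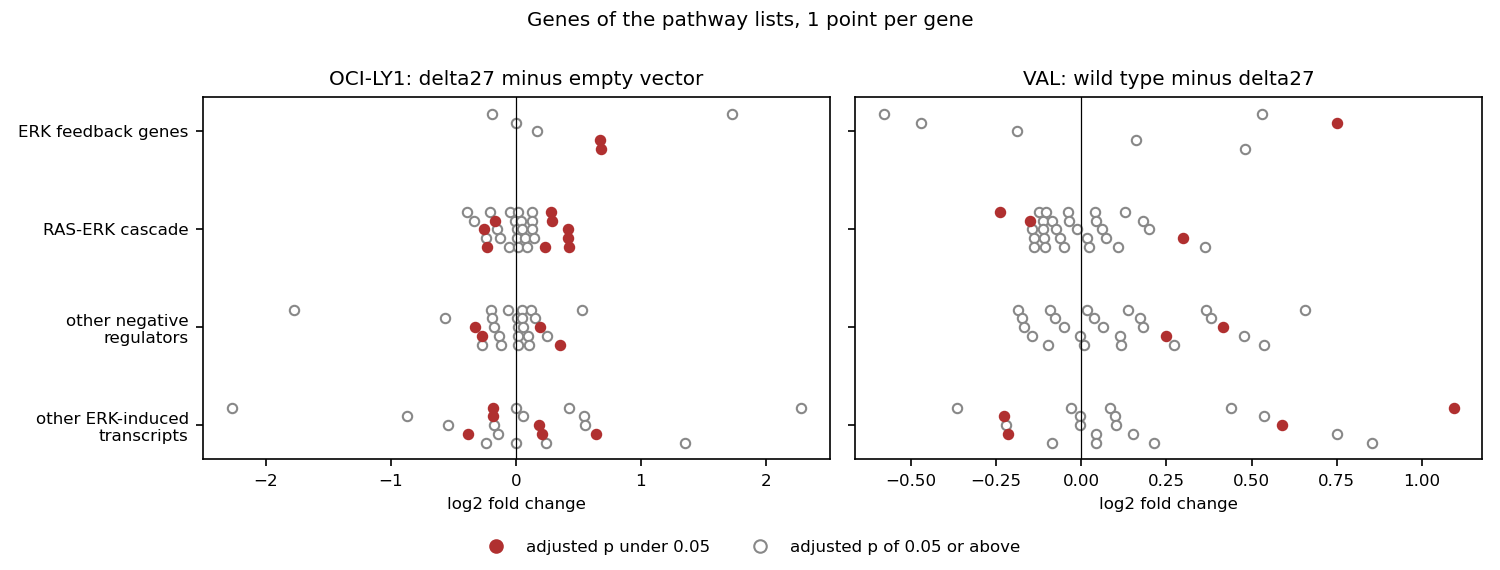
Log2 fold changes of the ERK feedback genes and the 3 lists in the contrasts within a line that called a feedback gene, each of which shares its empty vector or wild-type libraries with the contrast that chose the genes; each point is a gene, red where the adjusted p is under 0.05. Red points of the cascade and of the ERK-induced transcripts lie on both sides of 0 in both panels, and those of the feedback genes are DUSP6 (0.67) and SPRED1 (0.68) on the left and DUSP6 (0.75) on the right.

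Between the lines the ERK-induced transcripts were mostly higher in VAL, 16 of 21 against 2 lower with empty vector. Their median log2 fold change was 1.87 against 0.01 over all genes. Of all 17057 genes tested, 6296 were higher and 6223 lower in VAL. List genes with few reads in 1 line could pass the filter on low counts through the other. The part of this in the count and the median was not tested. IER5 was at 61.7 CPM ± 4.1 (SD, n = 2) in VAL against 13.3 ± 0.94 in OCI-LY1 and IER2 at 38.5 ± 2.9 against 14.6 ± 0.90. EGR3 had 0 reads in OCI-LY1 with empty vector and was at least 70.5-fold higher in VAL, whereas HBEGF was lower in VAL, at 0.36 ± 0.25 against 12.5 ± 0.46 CPM. DUSP2 was higher in VAL too, at 68.7 ± 4.5 against 8.71 ± 0.35 CPM. DUSP3, a phosphatase of several MAP kinases, was lower, at 0.203 ± 0.16 against 23.2 ± 1.4, as was DAB2IP, which inactivates RAS, at 3.10 ± 0.19 against 34.8 ± 1.3. In the cascade RRAS2, a RAS relative, was at 64.5 ± 7.5 CPM in VAL against 0.901 ± 0.029 and the adaptor GAB1 at 35.9 ± 4.0 against 2.64 ± 0.54. Of the feedback genes, DUSP4 and PHLDA1, whose direction was tied to the filter, lay on the side of most ERK-induced transcripts. SPRY1, SPRED2, DUSP5, DUSP6 and SPRED1 lay on the other.

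The 5 protein-coding genes whose log2 CPM, centred within each line, followed DUSP6 most closely over the 12 libraries were CIRBP (Pearson r = 0.916), RCBTB2, PTPRE, PLEKHA2 and AFAP1 (0.895). For SPRED1 they were MEF2C (0.965), ATP8A1, TNKS2, ANKIB1 and TPP2 (0.936). These are the highest of 10992 genes compared, over libraries that share their group and depth, and are given as a description. Among the feedback genes themselves, DUSP6 correlated with SPRED2 at 0.73, with DUSP5 at 0.50 and with SPRED1 at 0.39 on the same measure. With PHLDA1 it was at 0.17 and with SPRY1 at -0.33, and DUSP5 with SPRY1 was at -0.50. The 12 libraries include those on which DUSP6 and SPRED1 were picked, so these values are a description too.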

How the data were processed

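Each library came as its own deposited table of unnormalized read counts, as the labels and the whole-number values show. Per the submitters' processing notes, STAR 2.6.1b and HTSeq 0.11.2 were used with GRCh38; the annotation release, strand setting and filters are not given in the sources used here. A stranded kit was used, per the labels' protocols. Of 60603 genes, 58528 matched GENCODE 29 by identifier, which gave coordinates and exon lengths. Lines that name no gene were left out: reads outside genes made up 8.61% to 10.82% and ambiguous reads 2.32% to 2.55%.

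From these counts, edgeR 4.0.16 in R 4.3.3 fitted all 12 libraries with 6 group means (TMM scaling, minimum count 10, robust quasi-likelihood, 6 residual degrees of freedom), keeping 17057 genes. The tests are two-sided; p-values were adjusted by Benjamini and Hochberg's method across the 17057 genes, separately for each contrast, and called under 0.05. Of 11 contrasts, 8 were tested on the feedback genes. CPM values use TMM-scaled library sizes. Folds against 0 reads use a floor of 3 reads over a group. The methods were tested on simulated data. With 2 libraries against 2, no permutation test of a single gene can pass the threshold, so none is given.

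The feedback genes and the 3 gene lists were chosen with earlier results of these data known. Text names every feedback gene, BCL7A, examples from up to 4 called list genes with the smallest p per contrast and a mean of at least 1 CPM, and 5 genes most like DUSP6 and SPRED1. Alternatives were RLE scaling, DESeq2 1.42.0, limma-voom (limma 3.58.1), no filter, a minimum count of 50, each line alone, the replicate number as a block, a GC content and length correction, and leaving out each library.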

Additional observations from a re-analysis of the deposited data

Results flagged for a closer look

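Some genes of the pathway lists responded differently in the lines in the edgeR quasi-likelihood fit (values are VAL minus OCI-LY1). Of 77 list genes tested, 4 (5.19%) were called for wild-type BCL7A against empty vector, where 663 of all genes (3.89%) were, and 3 (3.9%) for delta27-BCL7A against empty vector, where 258 (1.51%) were. The feedback genes were tested for such a difference in the latter, with 0 of 6 called, and not in the former. In wild-type BCL7A against empty vector, ELK4 differed by -0.42 on the log2 scale (adjusted p = 0.001; 0.39 in OCI-LY1 and -0.03 in VAL), and IER5 by -0.57 (adjusted p = 0.00199; 0.63 and 0.06), a call lost without OCI-LY1 wild-type replicate 2 (-0.45; adjusted p = 0.0581). DAB2IP differed the other way, by 0.82 (adjusted p = 0.00255; -0.11 and 0.71). RASA2, which inactivates RAS, differed by -0.37 (adjusted p = 0.0172; 0.23 and -0.13), a call lost with the GC content and length correction (-0.20; adjusted p = 0.167) and without OCI-LY1 empty vector replicate 2 or either OCI-LY1 wild-type replicate (adjusted p = 0.0514 to 0.0863). In delta27-BCL7A against empty vector, ELK4 differed by -0.31 (adjusted p = 0.0303; 0.42 and 0.11) and the survival gene MCL1 by -0.29 (adjusted p = 0.0263; 0.21 and -0.09). The ELK4 difference missed the threshold with limma-voom (adjusted p = 0.0568), a minimum count of 50 (0.0502), the GC content and length correction (0.0696) and without 5 libraries in turn, and that of MCL1 without 4 libraries in turn. TRIB1, outside the naming rule and named after its value was seen, differed by 0.35 there (adjusted p = 0.0371).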

How the results depend on the processing

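RLE scaling, limma-voom and the GC content and length correction moved no call of a feedback gene, nor did DESeq2 where it gave an adjusted p: 1 of 7 genes in VAL and 1 of 6 in the line difference for delta27-BCL7A against empty vector, and 5 to 7 genes in the other contrasts. SPRED2 in OCI-LY1 with delta27-BCL7A against empty vector passed the threshold with no filter (0.18) and with each line alone (0.17), which made 3 genes called. With a minimum count of 50, DUSP5 there was at -0.02.

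Leaving out each library gave 1 to 2 feedback genes called in OCI-LY1 delta27-BCL7A against empty vector and 0 to 2 in wild-type against delta27-BCL7A of VAL. For OCI-LY1, differences near 0 changed sign, with ranges of -0.17 to 0.21 for DUSP5 in delta27-BCL7A against empty vector, and of -0.40 to 0.11 for DUSP5, -0.03 to 0.05 for SPRED2 and -0.46 to 0.24 for PHLDA1 between the constructs. In VAL delta27-BCL7A against empty vector the ranges were -0.01 to 0.31 for DUSP6, -0.31 to 0.17 for DUSP5, -0.22 to 0.18 for SPRED1 and -0.07 to 0.10 for SPRED2; SPRED1 in wild-type against delta27-BCL7A ran from -0.49 to 0.07, and the line difference of DUSP5 in delta27-BCL7A against empty vector from -0.35 to 0.14. The cause was not tested.

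The replicate numbers do not pair the libraries: same-numbered libraries deviated together with correlations of -0.051 to 0.043. With the replicate block DUSP6 kept 0.67 in OCI-LY1 (adjusted p = 0.00185), and the block changed no call of a feedback gene. Counts over all genes moved more. Without 1 library they were 1265 to 2964 (3338 with all) for delta27-BCL7A against empty vector and 75 to 517 (521) between the constructs in OCI-LY1, and 145 to 517 (875) and 438 to 2417 (1547) in VAL; other settings gave 2468 to 4113, 323 to 1086, 321 to 1496 and 907 to 1616. The line differences ran from 24 to 578 (258) and 23 to 631 (77). Of the 40 calls of list genes within a line that the naming rule took, 30 were lost in at least 1 setting. With 51 to 136 reads of DUSP6 in a library, depth limits the precision.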
